A study of Mus musculus with 12 samples.

Results

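The cluster of miR-183, miR-96 and miR-182 is a set of 3 neighbouring microRNA genes, and its mature products were followed here in the livers of adult male mice. Members were chosen by name, as every measured miRNA that is either arm of the miR-182, miR-183 or miR-96 hairpin. Of the 6 arms in the reference, the 3 on the 5′ side had values (mmu-miR-182-5p, mmu-miR-183-5p and mmu-miR-96-5p, written below without the species prefix), which makes 3 of the 386 miRNAs measured. The 3 arms on the 3′ side were not analysed here. The cluster was selected on CPM values of these same libraries, because miR-182-5p stood out in the comparison of the sons' own diet. Its values in that comparison are therefore given as a description, without a test.

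Wild-type mice of the C57BL/6 strain were used, and only male offspring were studied, in a fasted state at postnatal day 84. The 4 groups crossed the diets of mother and son, with 3 liver libraries each. They were OO (mother and son on an obesogenic diet), CO (control mother and obesogenic-fed son), OC (obesogenic mother and control-fed son) and CC (both on control chow). The obesogenic diet held 10% simple carbohydrates and 20% lipids and was given with sweetened condensed milk, against 7% and 3% in control chow, and the sons were weaned onto their own diet on day 21. The labels name no litter or dam for a son, so brothers could be present, and p-values measure the spread between these 12 livers. Diet in all groups began in the mother before mating, so no group separates pregnancy from lactation.

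The 3 hairpins are read from 1 primary transcript, which is cut into separate precursors and then into mature strands that guide silencing of target mRNAs. The cluster is best known from sensory organs, where all 3 miRNAs are abundant in hair cells and photoreceptors and where mutations in the seed of miR-96 cause hearing loss in mice and humans. In liver it has been studied as a target of the sterol regulator SREBP-2, and miR-182 and miR-96 are reported to restrain Fbxw7 and Insig2, which both limit SREBP activity. Lymphocytes, epithelia and endocrine cells also express the cluster.

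The mature sequences are shown because the members share most of their targeting bases. Each is written 5′ to 3′ from RefSeq on GRCm38.p6, with the seed, bases 2 to 8, in capitals.
miR-182-5p: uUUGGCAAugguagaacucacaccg
miR-96-5p: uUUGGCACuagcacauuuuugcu
miR-183-5p: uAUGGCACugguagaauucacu
Counting from 1 at the 5′ end, miR-96-5p differs from miR-182-5p in the seed by C8A and from miR-183-5p by U2A, and miR-182-5p differs from miR-183-5p by U2A and A8C. No seed of 7 bases was therefore shared between members. Over the mature sequence, seed included, miR-182-5p and miR-183-5p had the same base at 18 of 22 positions (81.8%), against 12 of 23 (52.2%) for miR-182-5p and miR-96-5p and 13 of 22 (59.1%) for miR-183-5p and miR-96-5p, aligned from the 5′ end without gaps.

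All 3 carried the bases UGGCA at positions 3 to 7. Of the 1679 mature mouse miRNAs in the reference, 5 did (0.298%), and among the 324 measured miRNA names with a reference sequence the cluster members were the only 3 (0.926%). The complete seed of miR-96-5p occurred in 1 other reference miRNA, miR-1271-5p, which had no measured value here. The seeds of miR-182-5p and miR-183-5p occurred in 0 others. Measured miRNAs whose names had no reference sequence were not compared.

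The hairpins lie on the minus strand of mouse chromosome 6 (GRCm38) in the order miR-183 (30169668 to 30169737), miR-96 (30169446 to 30169551) and miR-182 (30165918 to 30165992), within 3820 bases. Only 116 bases separate the hairpins of miR-183 and miR-96, whereas 3453 separate miR-96 from miR-182. In GENCODE vM21 none of them overlaps another gene. The protein-coding gene Nrf1, on the plus strand, ends 12.5 kb from the cluster, and the long noncoding RNA gene Rncr4, also on the plus strand, begins 3.16 kb from it. The hairpins are shown with the measured arm in capitals, to place that arm within each precursor.
miR-183 hairpin: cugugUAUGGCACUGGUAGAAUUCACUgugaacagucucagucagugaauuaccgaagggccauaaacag
miR-96 hairpin: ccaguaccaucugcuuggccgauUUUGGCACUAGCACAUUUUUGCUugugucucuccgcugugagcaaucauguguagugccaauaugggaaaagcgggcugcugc
miR-182 hairpin: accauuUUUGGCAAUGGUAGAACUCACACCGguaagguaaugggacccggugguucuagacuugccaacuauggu

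**Figure D1:**
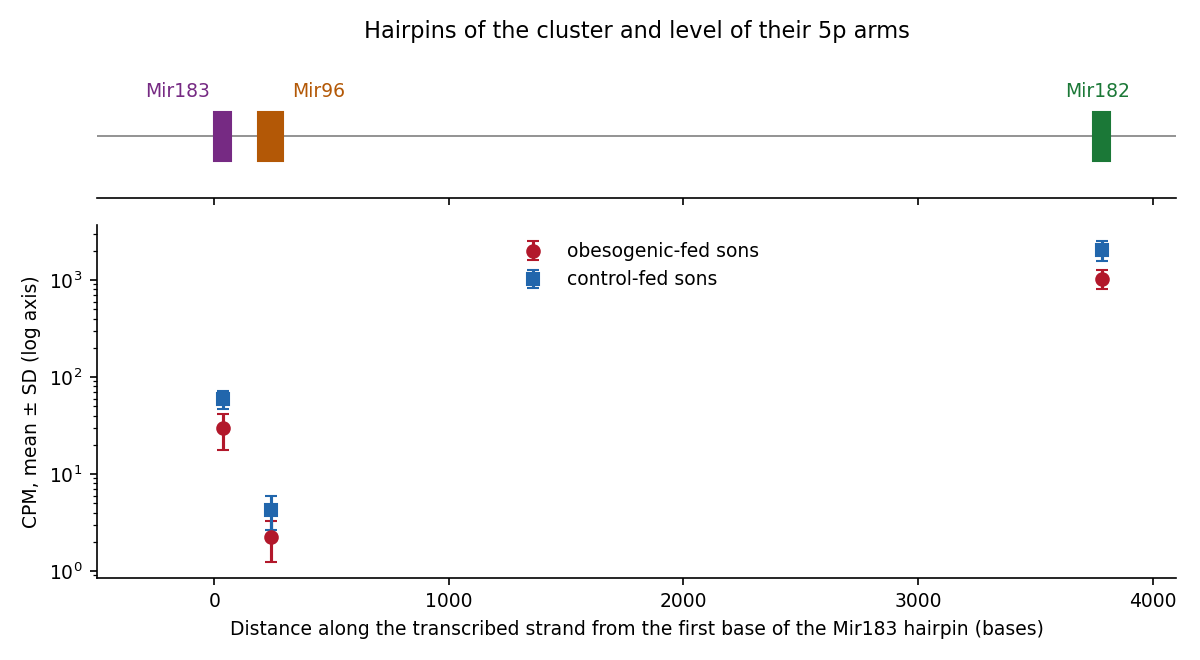
Position of the 3 hairpins (top, bases along the transcribed strand from the start of the miR-183 hairpin) and the level of each 5p arm below (CPM, mean ± SD, log axis) in obesogenic-fed (circles) and control-fed sons (squares, n = 6 each). miR-182-5p, the most distal of the 3, stood at 1034 CPM with the sons' obesogenic diet and 2043 CPM with chow, while miR-183-5p and miR-96-5p, 116 bases apart, lay far below it.

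Values are in CPM, reads of a miRNA scaled to a total of 1000000 per library, so they are relative levels. The columns summed to between 0.866% and 1.17% above that total, so they are not exact shares of the listed reads. Depth was 14.7 ± 6.00 M reads in OO, 11.2 ± 5.04 in CO, 18.8 ± 2.97 in OC and 9.94 ± 3.02 in CC (SD, n = 3 each; M stands for 1000000). It ranged from 5.45 M reads in CO replicate 3 to 22.2 M reads in OC replicate 1. CO replicate 3 also stood apart in its scaling: the median of all miRNAs lay 0.20 below the mean of all libraries on the log2 scale (-0.20), while the other 11 libraries lay between -0.04 and 0.13. miR-122-5p, the defining hepatocyte miRNA, stood between 19991 and 28851 CPM in all libraries, in keeping with the liver label. The data are from whole liver, so fewer cells of a type and less RNA per cell cannot be told apart.

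The members differed widely in level. miR-182-5p was the 41st most abundant of the 386 miRNAs, miR-183-5p the 169th and miR-96-5p the 334th. In the summed CPM of the 3, miR-182-5p held between 95.8% and 98.5% in every library, miR-183-5p between 1.41% and 3.97% and miR-96-5p between 0.0604% and 0.271%. Read numbers are shaped by adapter ligation, so these shares are of reads and not of molecules in liver. The number of reads behind a value was 4892 to 51566 for miR-182-5p, 70 to 1470 for miR-183-5p and 3 to 130 for miR-96-5p.

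miR-182-5p, the abundant member, had 915, 1328 and 924 CPM in the OO libraries. It had 809, 1330.1 and 898 CPM in CO, 2324, 1824 and 2872 CPM in OC, and 1771, 1833 and 1638 CPM in CC, each in the order of replicates 1 to 3. All 6 obesogenic-fed sons lay below all 6 control-fed sons, while OO overlapped CO and OC overlapped CC. In both obesogenic-fed groups replicate 2 was the high library. From highest to lowest the groups averaged 2340 ± 524 CPM in OC, 1747 ± 99.8 in CC, 1056 ± 236 in OO and 1012 ± 279 in CO (SD, n = 3 each).

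miR-183-5p, which shares most of its 3′ part with miR-182-5p, had 22.6, 38.6 and 38.3 CPM in OO. It had 23.0, 41.7 and 12.9 CPM in CO, 66.2, 52.6 and 82.5 CPM in OC, and 50.2, 51.7 and 54.9 CPM in CC. Again the 6 obesogenic-fed libraries, at most 41.7 CPM, lay below the 6 control-fed ones, at least 50.2 CPM. CO replicate 3 was the lowest of all. The group means were 67.1 ± 14.96 CPM in OC, 52.3 ± 2.42 in CC, 33.2 ± 9.17 in OO and 25.8 ± 14.6 in CO (SD, n = 3 each), the same order as for miR-182-5p.

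miR-96-5p, the member whose seed is mutated in inherited hearing loss, was close to the limit of the measurement. It had 2.43, 3.72 and 2.39 CPM in OO, 2.06, 2.41 and 0.551 CPM in CO, 3.65, 3.37 and 7.68 CPM in OC, and 3.91, 3.88 and 3.32 CPM in CC. The value of CO replicate 3 rests on 3 reads, with an exact Poisson 95% interval of 0.114 to 1.61 CPM that covers counting error only. Here the sons' diets overlapped, because OO replicate 2 lay above 3 of the 6 control-fed libraries. Group means were 4.90 ± 2.41 CPM in OC, 3.70 ± 0.335 in CC, 2.84 ± 0.756 in OO and 1.67 ± 0.987 in CO (SD, n = 3 each).

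**Figure D2:**
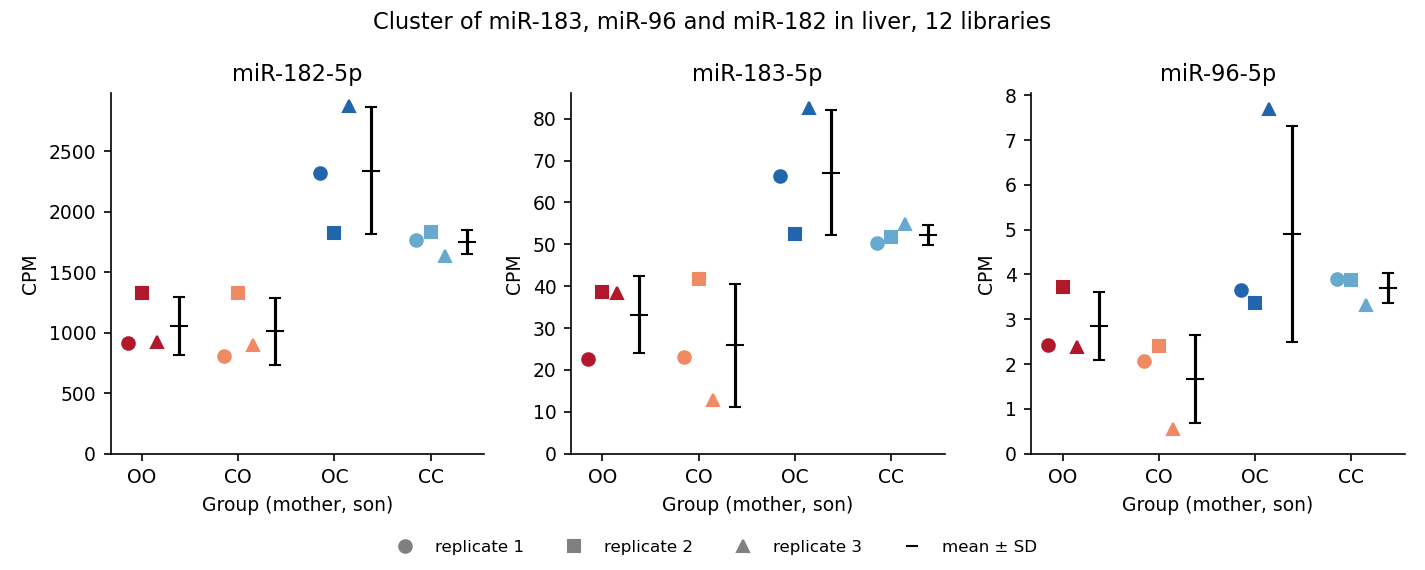
CPM of each member in each library, by group (mother's diet, then son's), with symbols for replicates 1 to 3 and the mean ± SD (n = 3) beside them. For miR-182-5p and miR-183-5p all OO and CO points lie below all OC and CC points, and for miR-96-5p OO replicate 2 (3.72 CPM) reaches the control-fed range.

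The spread within groups was not the same everywhere. Control sons of control mothers were the most uniform: the coefficient of variation of miR-182-5p was 22.4% in OO, 27.5% in CO and 22.4% in OC, against 5.71% in CC, and that of miR-183-5p was 27.7%, 56.6% and 22.3%, against 4.63% in CC. Counting error alone averaged 0.486% to 1.04% for miR-182-5p across the groups and 2.87% to 7.24% for miR-183-5p. In CC the spread of miR-183-5p was thus as small as its counting error of 4.48%, and in the other groups it was several times larger. For miR-96-5p the observed coefficient of variation was 26.6% in OO, 59.0% in CO and 49.2% in OC, against 9.04% in CC. Its counting error averaged 16.6% in OO, 31.2% in CO, 11.004% in OC and 16.9% in CC, so the observed spread was the larger in OO, CO and OC and the smaller in CC.

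The sons' own diet was the comparison in which the cluster was noticed. Averaged over both maternal diets, the level of miR-182-5p was 1034 ± 232 CPM in sons on the obesogenic diet and 2043 ± 468 CPM in those on chow (SD, n = 6 each), 49.4% lower. miR-183-5p stood at 29.5 ± 11.6 and 59.7 ± 12.6 CPM, 50.6% lower in obesogenic-fed sons, and miR-96-5p at 2.26 ± 1.01 and 4.30 ± 1.68 CPM, 47.5% lower. On the scale of log2(CPM + 1) the differences were -0.98 (SE 0.153) for miR-182-5p, -1.07 (SE 0.247) for miR-183-5p and -0.73 (SE 0.228) for miR-96-5p, beside a median of -0.02 over all 386 miRNAs. They ranked 4th, 2nd and 8th from the lowest. The added 1 CPM understates the difference of a miRNA as scarce as miR-96-5p, whose value was -0.94 with 0.25 CPM added and -0.35 with 5.

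Across all miRNAs limma with Benjamini-Hochberg adjustment called 3 of 386 (0.777%) for the sons' diet, all lower, and 1 of the 3 cluster members was among them, miR-182-5p. TMM factors gave 7 calls (2 higher and 5 lower) and median-of-ratios factors 8 calls, of which 2 were higher and 6 lower, both times with miR-182-5p and miR-183-5p among them. The sons' diets did not overlap, with the obesogenic-fed below, for 2 of the 3 members, as for 8 of all 386 miRNAs (2.07%). As the cluster was chosen on this contrast, these counts describe it and support nothing. The same holds for the counts and calls within either maternal diet below.

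Within sons of obesogenic-fed mothers, OO minus OC, the log2 difference was -1.15 (SE 0.217) for miR-182-5p, -1.01 (SE 0.349) for miR-183-5p and -0.56 (SE 0.322) for miR-96-5p. Without OC replicate 3, the high library of that group, miR-96-5p stood at -0.25, and with log2 depth in the fit at -0.35. Limma called 2 of 386 miRNAs (0.518%), miR-182-5p among them, and groups did not overlap for 2 of the 3 members, as for 20 of 386 miRNAs in that direction (5.18%). Without OC replicate 1 or 2, or any 1 OO library, limma called 0, with 28 at an unadjusted p under 0.05 when all libraries were kept. miR-182-5p was also no longer called without OC replicate 3, CO replicate 3 or any 1 CC library, in the 6 libraries alone, or with depth in the fit.

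Within sons of control-fed mothers, CO minus CC, the log2 difference was -0.82 (SE 0.217) for miR-182-5p, -1.14 (SE 0.349) for miR-183-5p and -0.89 (SE 0.322) for miR-96-5p. Without CO replicate 3, the shallowest library, miR-182-5p stood at -0.75, miR-183-5p at -0.73 and miR-96-5p at -0.54. The difference of miR-182-5p was -0.67 without CO replicate 1, -0.69 with TMM factors and -0.74 with median-of-ratios factors. Limma called 3 of 386 miRNAs (0.777%) in CO minus CC, none of them in the cluster, with 63 at an unadjusted p under 0.05, and limma-voom called 2, also without a member. All 3 members had CO entirely below CC, as did 63 of 386 miRNAs (16.3%). Without CO replicate 2, the high CO library, the difference was -1.03 for miR-182-5p and -1.55 for miR-183-5p, and both were then called. Leaving out the highest library of the lower group enlarges the difference by construction, so these calls support nothing.

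**Figure D3:**
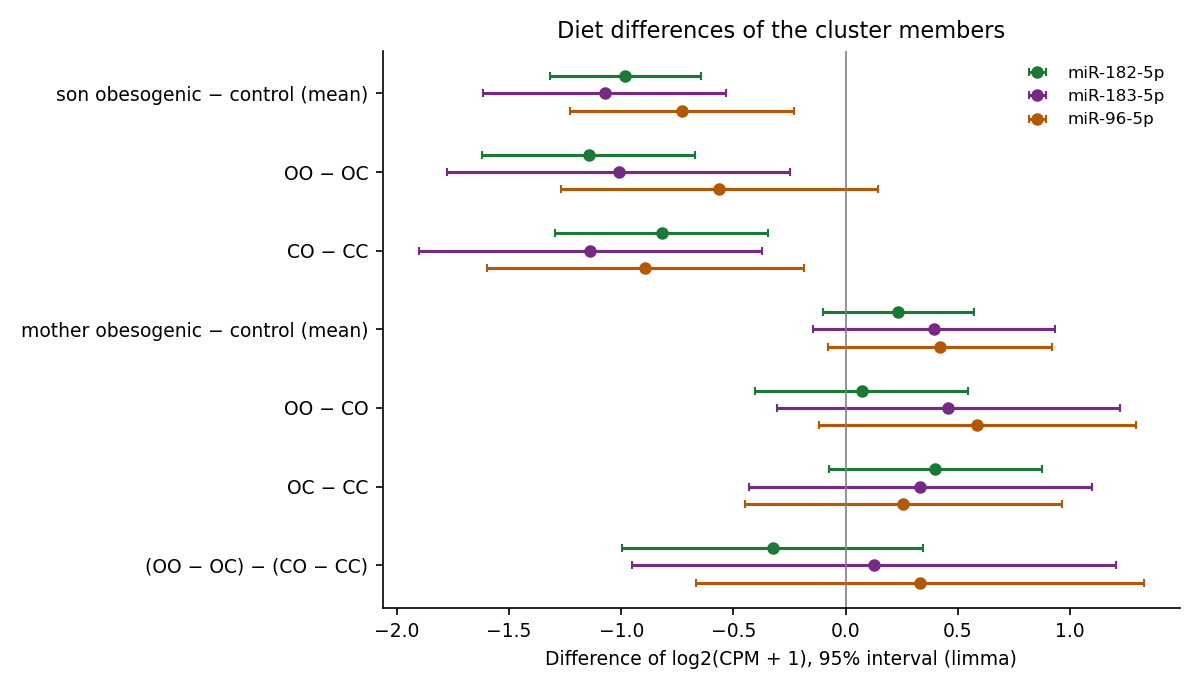
Differences of log2(CPM + 1) with 95% intervals from limma (n = 12 libraries) for the 3 members, by comparison. Points for the sons' diet lie left of 0, from -1.15 to -0.56, and the interval of miR-96-5p in OO minus OC crosses 0 (-1.27 to 0.14). The cluster was chosen on the sons' diet, so the intervals of those comparisons are descriptions and test nothing. Points for the mothers' diet lie right of 0, from 0.07 to 0.59, and those for the interaction on both sides. All intervals for the mothers' diet and the interaction cross 0.

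The title of OO replicate 2 ends in the letter A, like those of all control-fed sons, while the other obesogenic-fed titles end in other letters that the labels do not explain. That library had 1328 CPM of miR-182-5p and 38.6 CPM of miR-183-5p, below all 6 control-fed libraries in both cases, and 3.72 CPM of miR-96-5p, below 3 of the 6. It was also the highest OO library for each member. The other OO libraries had 915 and 924 CPM of miR-182-5p, 22.6 and 38.3 CPM of miR-183-5p, and 2.43 and 2.39 CPM of miR-96-5p. The titles of OO replicate 3 and OC replicate 2 share a stem, also unexplained. OO replicate 3 had 924 CPM of miR-182-5p against 1824 CPM in OC replicate 2, a ratio of 0.507, and the ratio was 0.728 for miR-183-5p and 0.708 for miR-96-5p. Letter A thus went with the sons' control diet except in OO replicate 2, and the shared stem was found under both of the sons' diets. With these few libraries the part of the letters and stems was not tested.

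The mother's diet was not used to choose the cluster and was tested. miR-182-5p averaged 1698 ± 792 CPM in sons of obesogenic-fed mothers and 1380 ± 444 CPM in sons of chow-fed mothers (SD, n = 6 each), a log2 difference of 0.24 (95% interval -0.10 to 0.57, limma adjusted p = 0.697). miR-183-5p averaged 50.1 ± 21.6 and 39.1 ± 17.2 CPM, a difference of 0.39 (-0.15 to 0.93, limma adjusted p = 0.676). miR-96-5p averaged 3.87 ± 1.96 and 2.69 ± 1.29 CPM, a difference of 0.42 (-0.08 to 0.92, limma adjusted p = 0.591). All 3 point estimates were above the median of 0.08 over all miRNAs, and all 3 intervals held 0. On the log2(CPM + 1) scale no interval reached a difference of 1 in size. Depth moved with the mother's diet, and with log2 depth in the fit the 3 differences were 0.06, 0.00 and 0.07.

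For the mother's diet limma called 0 of 386 miRNAs (0%) and limma-voom 0, and 27 had an unadjusted p under 0.05, none of them in the cluster. In obesogenic-fed sons, OO minus CO, miR-182-5p differed by 0.07 (95% interval -0.40 to 0.55), miR-183-5p by 0.46 (-0.31 to 1.22) and miR-96-5p by 0.59 (-0.12 to 1.29), with limma adjusted p = 0.901, 0.483 and 0.384. The median of all miRNAs was 0.13 in that comparison and 0.02 with median-of-ratios factors, so the value of miR-182-5p lay 0.06 below the median (-0.06). Its sign turned under TMM (-0.08) and median-of-ratios factors (-0.06). In control-fed sons, OC minus CC, the differences were 0.40 (-0.08 to 0.87) for miR-182-5p, 0.33 (-0.43 to 1.10) for miR-183-5p and 0.26 (-0.45 to 0.96) for miR-96-5p, each with a limma adjusted p of 0.9999. In each, limma called 0 of 386 (0%) and limma-voom 0, while 47 had an unadjusted p under 0.05 in OO minus CO and 4 in OC minus CC. With log2 depth in the fit the OC minus CC values of miR-183-5p and miR-96-5p were -0.20 and -0.22. Title prefixes also split fully with the mother's diet and cannot be told apart from it.

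The difference between the sons' diet effects under either maternal diet is the interaction, (OO minus OC) minus (CO minus CC). The estimate was -0.33 for miR-182-5p (95% interval -0.997 to 0.34, limma adjusted p = 0.773), 0.13 for miR-183-5p (-0.95 to 1.21, adjusted p = 0.935) and 0.33 for miR-96-5p (-0.67 to 1.33, adjusted p = 0.816). Limma called 0 of 386 (0%) and limma-voom 0, and 15 had an unadjusted p under 0.05. Without CO replicate 3 the estimate was -0.28 for miR-183-5p and -0.02 for miR-96-5p, both with the sign turned. That of miR-183-5p also turned without OC replicate 2 (-0.035), without OO replicate 2 (-0.0010) and with TMM factors (-0.018), so no direction is given for it. The median of all miRNAs was 0.13 and shifted by -0.14 with TMM factors, so relative to it the estimates were -0.45, 0.00 and 0.20. For each member the interval was wide enough to hold a difference as large as that of the sons' diet itself.

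The balance between members was then examined. The ratio of miR-182-5p to miR-183-5p was 33.0 ± 8.29 in OO, 45.7 ± 21.0 in CO, 34.9 ± 0.197 in OC and 33.5 ± 3.21 in CC (SD, n = 3 each). In OC it stayed between 34.7 and 35.1 although miR-182-5p ranged from 1824 to 2872 CPM. The ratio spread more in obesogenic-fed sons, from 24.1 in OO replicate 3 to 69.9 in CO replicate 3, against 29.8 to 35.5 in control-fed sons. The ratio of miR-183-5p to miR-96-5p lay between 9.31 and 23.3 in obesogenic-fed and between 10.7 and 18.1 in control-fed sons, and its highest value, in CO replicate 3, has 3 reads in its denominator.

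Over the 12 libraries, on the log2 scale, Pearson's r was 0.89 between miR-182-5p and miR-183-5p, 0.81 between miR-182-5p and miR-96-5p and 0.90 between miR-183-5p and miR-96-5p. These points share library, depth and diet group, and part of each r is the diet difference that chose the cluster. After each group's mean was subtracted, the values were 0.70, 0.68 and 0.78. For comparison, 139 other pairs of measured miRNAs come from hairpins within 10 kb on the same strand, and their median r within groups was 0.46, from -0.55 to 0.96. The cluster's 3 pairs ranked 19th, 32nd and 36th among the 142 pairs, behind the miR-200a/200b/429 and miR-144/451a pairs, which filled the first 4 places.

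**Figure D4:**
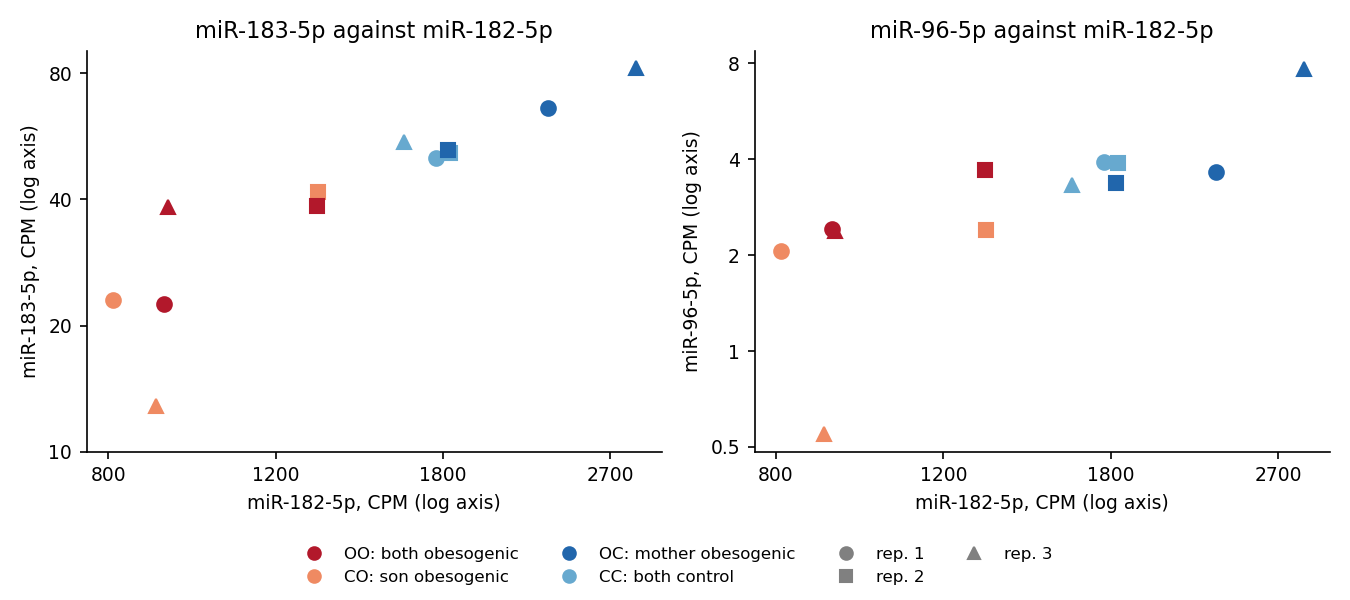
miR-183-5p (left) and miR-96-5p (right) against miR-182-5p in each of the 12 libraries, CPM on log axes, with colours for groups and symbols for replicates. Both are higher where miR-182-5p is higher, and CO replicate 3 lies low in both panels, at 12.9 and 0.551 CPM.

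The measured miRNAs most like miR-182-5p over the 12 libraries were, after its cluster partners, miR-31-5p (r = 0.78), miR-5099 (0.75), miR-137-3p (0.74), miR-30a-3p (0.74) and miR-184-3p (0.74). miR-31-5p, an epithelial miRNA, stood at 442 ± 20.2 CPM in the obesogenic-fed and 595 ± 37.6 CPM in the control-fed sons (SD, n = 6 each), and miR-5099 at 222 ± 27.7 and 491 ± 73.4 CPM. miR-137-3p, known from neurons, stood at 4.69 ± 1.62 and 7.51 ± 1.37 CPM, and miR-184-3p, known from lens and cornea, at 3.86 ± 1.43 and 7.28 ± 1.33 CPM. Within groups the likeness to miR-182-5p was 0.00 for miR-31-5p, -0.39 for miR-5099, 0.41 for miR-137-3p, 0.41 for miR-30a-3p and 0.29 for miR-184-3p, against 0.70 and 0.68 for the cluster partners. The least like were miR-1933-3p (r = -0.78), miR-378a-3p (-0.76) and miR-1947-5p (-0.73). miR-378a-3p, from an intron of Ppargc1b, stood at 15208 ± 1406 CPM under the sons' obesogenic diet and 12312 ± 621 CPM under chow.

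Other miRNAs encoded near the cluster were compared next. Within 2 Mb on chromosome 6, 7 measured arms come from miR-129-1, miR-335, miR-29a and miR-29b-1, at 572 to 1143 kb from the cluster. For the sons' diet 0 of the 7 passed by limma (0.777% of all miRNAs did), and the log2 differences ran from -0.66 for miR-29a-5p to 0.14 for miR-335-3p. The imprinted miR-335-5p, the nearest with miR-335-3p, stood at 96.7 ± 24.9 CPM under the sons' obesogenic diet and 94.96 ± 9.36 CPM under chow (difference -0.01, limma adjusted p = 0.963). miR-29a-3p, known for restraining collagen genes, stood at 4022 ± 822 and 4659 ± 354 CPM (-0.24, limma adjusted p = 0.417). For the mother's diet and the interaction 0 of the 7 passed as well.

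**Figure D5:**
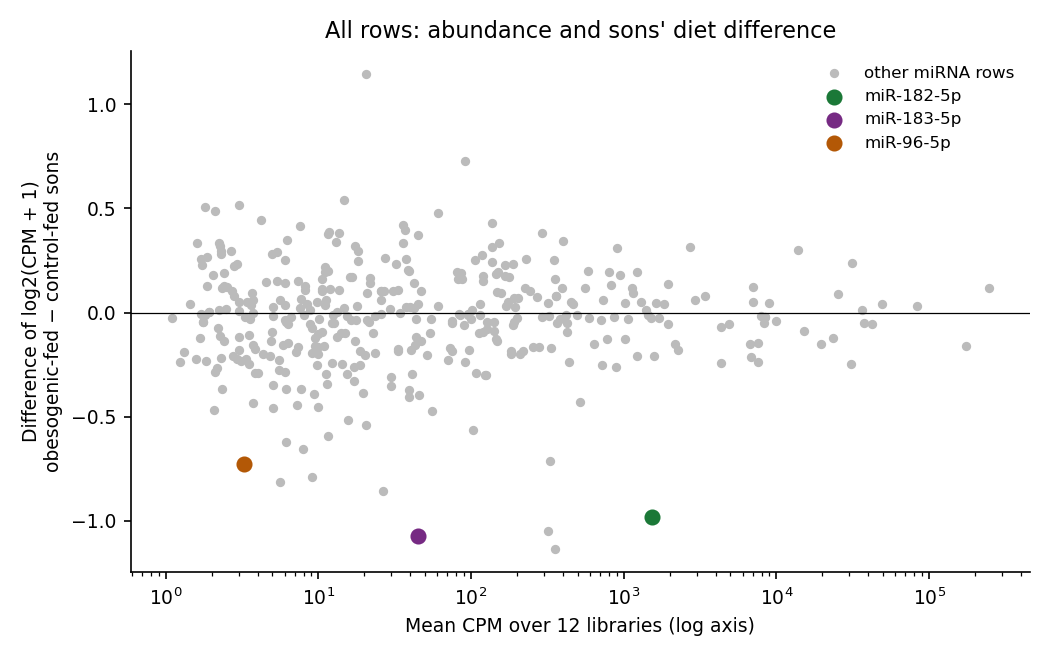
Mean CPM (log axis) and difference of log2(CPM + 1), obesogenic-fed minus control-fed sons, for all 386 miRNAs. The 3 members (coloured) lie at -0.98, -1.07 and -0.73 over very different abundances, below most miRNAs of similar level, and other miRNAs lie as low.

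Because SREBP-2 is a known regulator of the cluster, a list of 18 measured miRNAs of SREBP and lipid metabolism, without the cluster, was set beside it. For the sons' diet 0 passed by limma, 12 were higher and 6 lower, and the median was 0.05, against -0.02 over all miRNAs. Its most abundant members were miR-148a-3p (0.03, limma adjusted p = 0.877) and miR-27b-3p (0.09, adjusted p = 0.557), both known to act on lipid genes. miR-33-5p, which lies in an intron of Srebf2 and restrains cholesterol export, was named after its values were seen. It stood at 9.14 ± 2.82 CPM under the sons' obesogenic diet and 13.9 ± 1.72 CPM under chow (difference -0.59, limma adjusted p = 0.126). The other arm of that hairpin, miR-33-3p, stood at 3.65 ± 1.49 and 4.39 ± 0.758 CPM (-0.29, limma adjusted p = 0.608). For the mother's diet and the interaction 0 of the 18 passed.

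Lists of cell type miRNAs were read in the same way, since a bulk level can move with the cells present. For the sons' diet, miR-31-5p fell in the epithelial list (1 of 10, beside 0.777% of all miRNAs; log2 difference -0.43, limma adjusted p = 0.00743), and 0 passed among 7 hepatocyte, 6 leukocyte, 3 erythroid, 2 endothelial, 8 stellate and mesenchymal, and 7 sensory organ and neuronal miRNAs. In the epithelial list 6 of the 10 were higher and 4 lower, with a median of 0.16. None of the listed miRNAs was at 0 in any library. The summed level of the epithelial list was 2675 to 4183 CPM under the sons' obesogenic diet and 2587 to 5409.9 CPM under chow, that of the leukocyte list 639 to 1027 and 755 to 1440 CPM, and that of the hepatocyte list 364622 to 415633 and 344097 to 369306 CPM. In the hepatocyte list 3 of the 7 were higher and 4 lower for the sons' diet, with a median of -0.02. Most of its sum came from miR-192-5p (mean 246349 CPM) and miR-148a-3p (83864 CPM). The highest hepatocyte sum, 415633 CPM, was in CO replicate 3, the library that stood apart in its scaling. Correlations with the cluster were taken on the log2 scale over the 12 libraries, which share scaling to a fixed total and diet groups. Group means were not subtracted here, so each r also holds the sons' diet difference that chose the cluster. The hepatocyte sum had r = -0.70 with miR-182-5p, -0.88 with miR-183-5p and -0.82 with miR-96-5p. The endothelial sum, from 2 arms of miR-126, had r = 0.41, 0.65 and 0.75 with the same members in turn, and the other lists lay between -0.58 and 0.41. CO replicate 3 had the lowest endothelial sum and was also the lowest library for miR-183-5p and miR-96-5p. The endothelial sum was 21065, 22984 and 15584 CPM in CO, below all of 27100.2, 24304 and 25307 CPM in CC. Among all single miRNAs, 63 of 386 (16.3%) also had CO entirely below CC. The endothelial sum was 26194, 28052 and 24420.2 CPM in OO and 24653, 23722 and 24493 CPM in OC, which overlapped. The most abundant of each list, such as miR-192-5p and miR-148a-3p for hepatocytes, miR-203-3p and miR-31-5p for epithelium, and miR-143-3p with miR-199a-3p for stroma, are in these sums. For the mother's diet and the interaction 0 passed in every list by limma.

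The markers miR-150-5p and miR-375-3p, named after their values were seen, are given here by library. miR-150-5p, a lymphocyte miRNA, had 319, 298 and 354 CPM in OO, 148, 215 and 147 CPM in CO, 724, 220.3 and 403 CPM in OC, and 284, 404 and 414 CPM in CC. Its log2 difference by the sons' diet was -0.71 (limma adjusted p = 0.198). The leukocyte list as a whole had 3 members higher and 3 lower, with a median of 0.06, and miR-223-3p (0.43) and miR-146b-5p (0.48) were among the higher, also without passing. miR-375-3p, abundant in endocrine pancreas, reached 1061 CPM in CO replicate 2, which was the high CO library for all 3 members, and 1734 CPM in OC replicate 1, which was not the high OC library for any of them. In the other 10 libraries it lay between 16.6 and 266 CPM. The part of these cell types in the cluster's values was not tested.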

How the data were processed

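Small RNA libraries (TruSeq kit) were made from total liver RNA of 12 mice, per the labels' protocols. Bowtie 1.2.3 was among the tools, per the submitters' processing notes; genome build, miRNA reference and treatment of multiply matching reads were not given in the sources used here. CPM for 386 rows were deposited by the authors. In each column 100% of values were whole multiples of 1 step within 0.001 reads, which gave the depths of 5.45 to 22.2 M reads. Columns were matched to libraries by the column number in each description, and replicates were numbered in accession order and pair nothing.

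All 386 rows were fitted with limma 3.58.1 (R 4.3.3) to log2(CPM + 1), with a mean-variance trend, 4 group means, 7 two-sided contrasts and Benjamini-Hochberg adjustment within each (threshold 0.05). The fit was tested on simulated data. Count models were not run, because the deposited values are CPM and reads could only be inferred from their steps. Limma-voom and the TMM factors used those inferred reads. Alternatives were pseudocounts of 0.25 and 5, a minimum mean of 10 CPM, TMM and median-of-ratios factors, each library left out, the 6 libraries of a contrast alone, log2 depth as a covariate and limma-voom, the last added after the data were seen. Members and lists were chosen with earlier results of these data known. Beside the members, named miRNAs are the 5 most and 3 least correlated with miR-182-5p, neighbours within 2 Mb, seed sharers, and passing or most abundant list members. miR-33-5p, miR-33-3p, miR-150-5p and miR-375-3p were named after their values were seen, as were the miRNAs correlated within groups. Python 3.11.15, pandas 2.3.3 and matplotlib 3.10.9 were used for other steps.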

Additional observations from a re-analysis of the deposited data

Results flagged for a closer look

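miR-96-5p in OC replicate 3 stood apart from the other libraries, at 7.68 CPM from 130 reads (exact Poisson 95% interval 6.42 to 9.12 CPM, counting error only). Among the 6 control-fed sons the next highest value was 3.91 CPM, and among the 6 sons of obesogenic mothers it was 3.72 CPM. In both sets the gap, divided by the range of the set, was above Dixon's 95% critical value of 0.625. Both sets hold the same library and join a pair of diet groups. In all, 24 such gaps were examined, with the high and low ends of a set counted apart, and 2 passed. Chance passes this critical value, at either end, in about 1 of 20 sets. The same library was also the highest for miR-182-5p (2872 CPM) and miR-183-5p (82.5 CPM), without passing the critical value there.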

How the results depend on the processing

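The members' values were computed 404 times under alternatives, and 13 changed sign. None of these was for the sons' diet, where all 174 values, both strata included, stayed below 0. Where a contrast joins a pair of groups, leaving out a library of another group cannot change the estimate. Fitting the 6 libraries alone cannot change it either. Such repeats of the main value are among the 174 and the 404, and the cluster was chosen on the sons' diet. Averaged over maternal diet, leaving out 1 library gave -1.09 to -0.90 for miR-182-5p, -1.28 to -0.87 for miR-183-5p and -0.84 to -0.55 for miR-96-5p. For the mother's diet these ranges were 0.15 to 0.34, 0.19 to 0.60 and 0.25 to 0.53, and no alternative passed (lowest limma adjusted p 0.377). Sign changes with 1 library left out concern the interaction of miR-183-5p (-0.28 to 0.54) and miR-96-5p (-0.024 to 0.64), OC minus CC of miR-96-5p (-0.058 to 0.44) and OO minus CO of miR-182-5p (-0.10 to 0.29). The interaction of miR-183-5p was -0.018 with TMM factors. With log2 depth in the fit OO minus CO of miR-182-5p was -0.039, and OC minus CC was -0.20 for miR-183-5p and -0.22 for miR-96-5p; OO minus CO of miR-182-5p was -0.084 with TMM and -0.062 with median-of-ratios factors. The causes were not tested. CO minus CC of miR-96-5p was -0.39 with 5 CPM added, by construction, and the minimum of 10 CPM left miR-96-5p out. Counts over all miRNAs for the sons' diet (3) became 7 with TMM, 8 with median-of-ratios factors and 5 without OC replicate 2. For CO minus CC (3) they were 1 to 4 with 1 library left out, 1 with TMM factors or the 6 libraries alone and 10 with depth. For OO minus OC (2) they were 0 to 2 with 1 library left out and 1 with the 6 libraries alone or with depth. OO minus CO (0) gave 2 without CO replicate 2, and the mother's diet and the interaction (0) gave 1 each with depth, none of these a member. Count models planned as alternatives were not run. Depth limits miR-96-5p, with 3 to 130 reads a library.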

Other observations

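After each group's mean was subtracted, the miRNAs that moved most like miR-182-5p over the 12 libraries were miR-199b-5p (r = 0.85), miR-467a-5p and miR-467b-5p (0.82 each, with identical values in every library), miR-181d-5p (0.81) and miR-2137 (0.81). The cluster partners miR-183-5p and miR-96-5p came 9th and 11th. These are descriptions over 12 libraries that share depth, scaling to a fixed total and diet groups.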
